A study of Drosophila melanogaster with 3 samples.

Results

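The cytosolic large-subunit ribosomal protein genes of Drosophila melanogaster were examined for binding of the CG14050 protein. They were taken as the protein-coding genes of the Ensembl annotation whose symbol begins with RpL or RpLP followed by a digit, and there were 54 of them among 13945 protein-coding genes on the 6 chromosome arms. Chromatin immunoprecipitation and sequencing (ChIP-seq) had been done with an anti-GFP antibody on whole embryos of 0 to 24 hours from a transgenic line carrying a CG14050-eGFP fusion protein, so embryos of very different ages were pooled and the tagged protein stood in for the native one. The series held 1 group of 3 biological replicates, with no second genotype, age or treatment, and no control precipitation was analysed here. A gene was called bound in a peak list where the summit of a peak lay within 500 bp of any of its annotated transcription start sites (TSSs). By that rule 34 of the 54 genes were bound in the conservative peak list, the list across replicates that the authors gave this name, and 20 were not.

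The large subunit of the cytosolic ribosome joins amino acids at its peptidyl transferase centre, passes the new chain through an exit tunnel and recruits translation factors through a flexible stalk. Its protein genes are among the most strongly expressed in growing tissue, and in flies the loss of a single copy of many of them gives the Minute phenotype of slow development and slender bristles. Most fly ribosomal protein promoters lack the usual initiator and carry instead a TCT initiator, a short pyrimidine run at which transcription begins on a C and which relies on the TBP-related factor TRF2. Other elements known at such promoters are the DRE, which binds the factor DREF, the site of M1BP, and the E box read by Myc.

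The promoters of 10 of the genes are shown as examples and not as a representative sample: 6 that were bound and, from RpL13A on, 4 that were not. Each runs 5′ to 3′ in the direction of the gene, from 100 bases before the TSS with the most transcripts to the 20 bases that begin at it, on the dm6 build with the RefSeq genome sequence. Capitals mark a TCT initiator (the letters CTTT with a pyrimidine on either side, searched on the gene strand, with the first C of CTTT within 20 bases of the TSS), a DRE (TATCGATA), an M1BP core (GGTCACAC) or an E box (CACGTG), the last 3 on either strand. Where several TCT matches met this rule, only the match nearest the TSS is in capitals.
RpL3, chr3R:11221794-11221913, plus strand: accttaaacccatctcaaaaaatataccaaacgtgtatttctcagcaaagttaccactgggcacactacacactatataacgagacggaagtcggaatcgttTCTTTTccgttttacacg
RpL14, chr3L:8600906-8601025, plus strand: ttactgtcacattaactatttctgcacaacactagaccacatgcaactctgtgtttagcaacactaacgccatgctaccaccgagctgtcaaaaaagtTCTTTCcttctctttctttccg
RpL23A, chr3L:1668635-1668754, minus strand: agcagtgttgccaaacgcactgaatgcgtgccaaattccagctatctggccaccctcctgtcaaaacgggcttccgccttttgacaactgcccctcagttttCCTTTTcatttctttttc
RpL27, chr3R:25685032-25685151, minus strand: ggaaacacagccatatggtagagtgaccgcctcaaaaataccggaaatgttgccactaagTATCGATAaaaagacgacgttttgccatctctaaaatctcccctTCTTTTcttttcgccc
RpL28, chr3L:3222939-3223058, minus strand: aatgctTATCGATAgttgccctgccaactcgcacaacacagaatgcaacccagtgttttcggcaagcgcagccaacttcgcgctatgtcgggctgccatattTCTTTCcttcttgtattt
RpL34b, chr3R:9401207-9401326, minus strand: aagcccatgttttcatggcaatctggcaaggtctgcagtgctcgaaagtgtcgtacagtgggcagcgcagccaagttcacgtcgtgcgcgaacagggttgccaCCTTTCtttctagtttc
RpL13A, chr3R:5624374-5624493, plus strand: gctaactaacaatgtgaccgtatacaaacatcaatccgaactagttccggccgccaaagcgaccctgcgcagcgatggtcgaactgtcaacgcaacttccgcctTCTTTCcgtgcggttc
RpLP1, chr2L:419852-419971, plus strand: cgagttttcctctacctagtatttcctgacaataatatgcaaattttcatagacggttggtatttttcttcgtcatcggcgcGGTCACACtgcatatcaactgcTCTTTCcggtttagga
RpL40, chr2L:4227599-4227718, plus strand: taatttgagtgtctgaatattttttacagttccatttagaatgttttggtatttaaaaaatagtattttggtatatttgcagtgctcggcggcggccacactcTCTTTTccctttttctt
RpL10Aa, chr3R:15037266-15037385, plus strand: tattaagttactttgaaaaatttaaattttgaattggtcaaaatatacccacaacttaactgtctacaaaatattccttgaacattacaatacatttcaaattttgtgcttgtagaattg
The C of a TCT initiator lay within 5 bases of the TSS in all 6 bound promoters shown and in 3 of the 4 unbound ones, RpL10Aa being the exception. Over the whole family 14 of the 34 bound and 10 of the 20 unbound genes had it there. RpL27 and RpL28 also carried a DRE, and the unbound RpLP1 carried an M1BP core. The summit of the conservative peak fell on base 82 of the 120 printed for RpL3, base 60 for RpL14, base 23 for RpL23A, base 67 for RpL27 and base 54 for RpL28, whereas that of RpL34b lay 122 bp upstream of the TSS and outside the printed stretch.

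Of the 54 genes, 34 (63.0%, exact 95% binomial interval 48.7 to 75.7%) were bound in the conservative list, where the share over all protein-coding genes was 14.3% (1998 of 13945). The source regions recorded for that list matched replicates 2 and 3 and hardly ever replicate 1. In the lists of single replicates, 32 of the genes were bound in replicate 1 (59.3%), 23 in replicate 2 (42.6%) and 29 in replicate 3 (53.7%). The mean was 51.9% ± 8.49 (SD, n = 3). Over all protein-coding genes the corresponding shares were 9.53%, 11.0% and 10.7%, with a mean of 10.4% ± 0.778 (SD, n = 3), so the share of the large-subunit genes was the higher in each of the 3 replicates. Replicate 2 had the most peaks of the 3 lists, 2433 against 2155 and 2282, but the fewest large-subunit genes. Among the 13 genes bound in exactly 2 replicate lists, 9 were missing from replicate 2 and 2 each from replicates 1 and 3. The same split was not computed over all protein-coding genes, so it is not shown to be particular to this family. Intervals are for counting error over genes and not for the spread between embryo collections.

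A summit was present in all 3 replicate lists at 18 genes (33.3%), in 2 lists at 13, in 1 list at 4 and in none at 19. Over all protein-coding genes, 6.87% were bound in all 3 replicates and 85.6% in none. Over all 7 deposited thresholded lists, 39 of the 54 genes (72.2%) were bound in at least 1, compared with 18.0% of all genes. In every list 17 genes were bound, and the share over all genes was not computed for that count. Of the genes with any ranked region within 500 bp in the list from which the conservative peaks were drawn, 34 of 45 large-subunit genes (75.6%) and 26.9% of all genes (1998 of 7439) were bound.

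**Figure D1:**
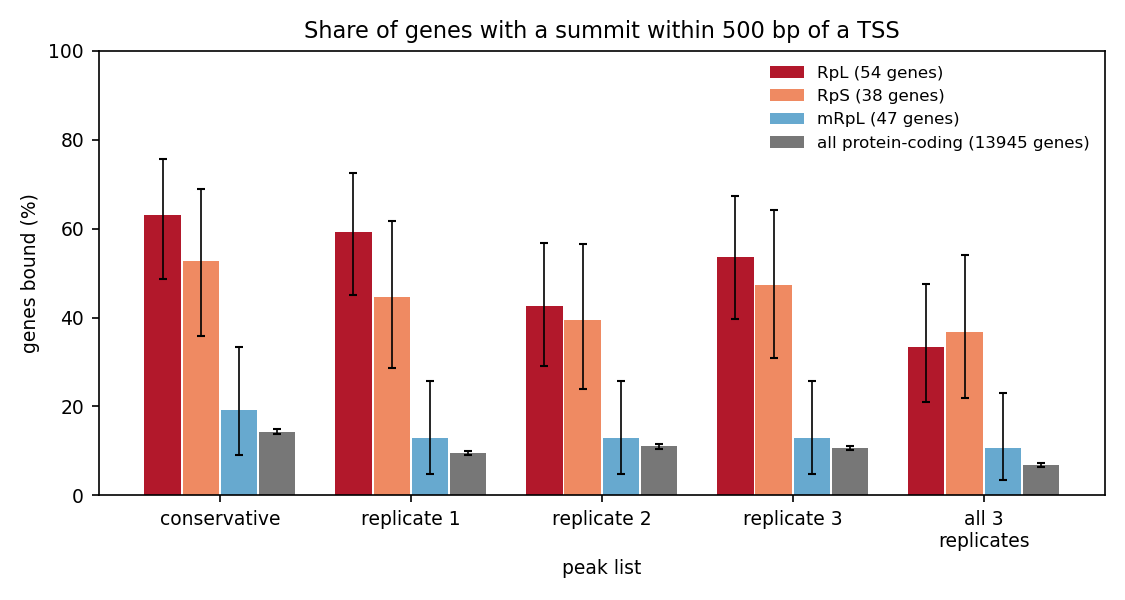
Share of genes in percent with a peak summit within 500 bp of a TSS, by peak list, for large-subunit (RpL), small-subunit (RpS) and mitochondrial large-subunit (mRpL) ribosomal protein genes and all protein-coding genes; bars are shares and whiskers exact 95% binomial intervals. In the conservative list the RpL bar stands at 63.0% and the bar of all genes at 14.3%.

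The small-subunit genes of the same ribosome gave a share near that of the large-subunit genes, with 20 of 38 RpS genes (52.6%, 35.8 to 69.0%) bound in the conservative list and a mean over replicates of 43.9% ± 4.02 (SD, n = 3). The genes of the mitochondrial large subunit, which encode the proteins of a separate ribosome of bacterial descent, gave 9 of 47 (19.1%, 9.15 to 33.3%) and 12.8% in each replicate. The interval of the mitochondrial genes contained the 14.3% of all genes. The difference between the cytosolic subunits was not tested, and their intervals overlapped.

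The signal, which is the authors' own peak height and is compared only within a list, placed the bound genes above the middle of the conservative list. Their median signal was 186 (range 66.2 to 494) against 134 for all peaks of that list. Expressed as a rank percentile with 100 as the strongest peak, their median was 68.8, and that of all 1998 bound protein-coding genes was 60.0. In single replicates the median percentile was 57.7, 46.2 and 69.5 (mean 57.8 ± 11.7 SD, n = 3), against 55.8, 57.7 and 56.3 for all bound genes (mean 56.6 ± 0.972). The spread over replicates exceeded the difference between these means, and in replicate 2 the order was the opposite. The 17 genes recurring in all 3 replicates and bound in the conservative list had a median conservative signal of 259. The median was 151 for the 11 in 2 lists, 100 for the 3 in 1 list and 83.5 for the 3 in none. Signal and recurrence were read from the same replicates, so this order was partly built in. Among the 18 genes found in all 3 replicates, Spearman's rho of the signals was 0.807 between replicates 1 and 2, 0.677 between 1 and 3 and 0.856 between 2 and 3. These values are across genes, chosen here for being above threshold in each list.

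**Figure D2:**
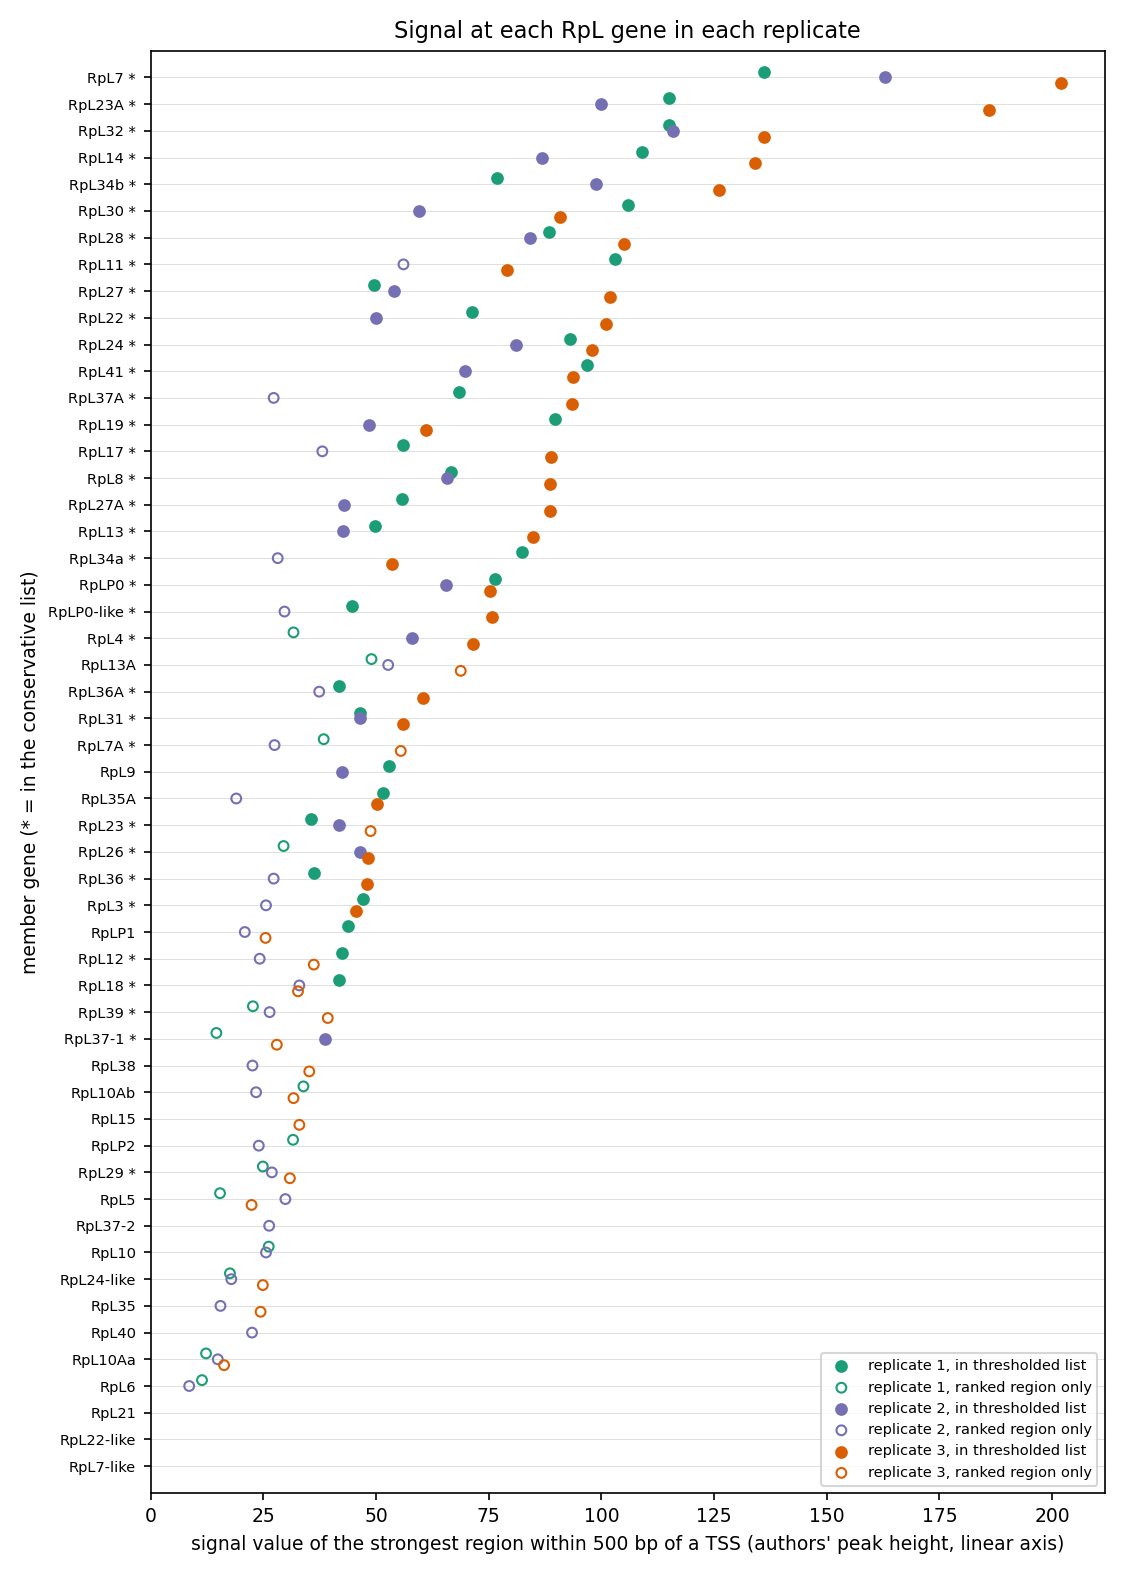
Signal (authors' peak height, linear axis) of the strongest region within 500 bp of a TSS at 53 of the RpL genes in replicates 1 to 3; filled points are in the thresholded list, open points only among the ranked regions, an asterisk marks the 34 genes of the conservative list, and the small vertical offsets separate replicates. RpL7 is the highest in each replicate, at 136, 163 and 202, and RpL21, RpL22-like and RpL7-like have no point.

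RpL7 (FBgn0005593, 2L from 10201004 to 10202321), which encodes an rRNA-binding protein, had the strongest peak of the family. Its signal was 136 in replicate 1, 163 in replicate 2, 202 in replicate 3 and 494 in the conservative list, where it ranked 182 of 3515. The summit lay 35 bp downstream of its TSS in the 5′ UTR, and a TSS of Ripalpha lay 65 bp away. RpL32 (FBgn0002626, 3R from 30045229 to 30046161), long known as rp49 and widely used as a reference transcript in flies, gave 115, 116 and 136 in the replicates and 366 in the conservative list. RpL14 (FBgn0017579), whose summit lay 41 bp upstream of its TSS and 86 bp from a TSS of Nelf-E, a subunit gene of the pausing factor NELF, gave 109, 86.8 and 134, and 337 in the conservative list. RpL28 (FBgn0035422) gave 88.4, 84.1 and 105, and 291 in the conservative list. RpL7, RpL32, RpL14 and RpL28 had rank percentiles of 94.8, 90.9, 89.0 and 85.3 in the conservative list. In replicates 1 to 3 the percentiles were 89.9, 91.1 and 93.8 for RpL7 and 86.4, 83.9 and 86.1 for RpL32. They were 84.9, 71.3 and 85.5 for RpL14 and 75.7, 69.4 and 77.4 for RpL28.

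RpL24 (FBgn0032518) gave 93.1, 81.1 and 97.9 in replicates 1 to 3 and 284 in the conservative list. RpL30 (FBgn0086710), whose yeast counterpart controls the splicing of its own transcript, gave 106, 59.5 and 90.8, and 259 in the conservative list. RpL41 (FBgn0066084), the smallest ribosomal protein, gave 96.8, 69.8 and 93.8, and also 259 in the conservative list. By rank percentile within each list, RpL24, RpL30 and RpL41 were lowest in replicate 2, at 67.7, 48.6 and 59.0. In replicate 3 they were at 74.8, 71.1 and 72.5, and in replicate 1 at 78.5, 83.8 and 80.1.

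The stalk genes differed among themselves. RpLP0 (FBgn0000100), the scaffold of the stalk, was bound in every list, with signals of 76.3, 65.5 and 75.4 in the replicates and 235 in the conservative list. RpL12 (FBgn0034968), at the base of the stalk, had a signal of 42.5 in replicate 1, was in neither other replicate list, and reached 104 in the conservative list. RpLP1 (FBgn0002593), an acidic protein at the tip of the stalk, was in the replicate 1 list at 43.8 and had only sub-threshold regions of 20.9 and 25.5 in replicates 2 and 3. Its region in the conservative ranked list had a signal of 100 and an irreproducible discovery rate (IDR, the authors' measure of disagreement between sources) of 0.0435, where the thresholded lists admit values up to 0.01. That region did pass in the list whose source regions matched no replicate, at an IDR of 0.00419. RpLP2 (FBgn0003274), the partner of RpLP1, was in no list, and its strongest ranked region in the conservative ranked list had a signal of 84.0 and an IDR of 0.17. Its lowest IDR was just over the limit, at 0.011 in the ranked list across replicates 1 and 2, and replicate 1 gave 0.0137. Of the 4 stalk genes 2 were therefore bound in the conservative list and 1 in all 3 replicates.

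RpL5 and RpL11 carry the 5S rRNA into the subunit as a preassembled particle, which in mammals also restrains the p53 inhibitor Mdm2. RpL11 (FBgn0013325) was bound, at 103 in replicate 1 and 79.0 in replicate 3, with a conservative signal of 241 and a summit 38 bp upstream of the TSS. RpL5 was in none of the 7 lists, with ranked regions of 15.4, 29.9 and 22.4 in the replicates, all of which had an IDR over 0.01. The partners of the 5S particle were thus on opposite sides of the threshold.

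Around the peptidyl transferase centre, RpL8 (FBgn0261602) was bound in every list, with 66.6, 65.8 and 88.6 in the replicates and 228 in the conservative list. RpL3 (FBgn0020910) was bound in replicates 1 and 3 at 47.2 and 45.5, and reached 116 in the conservative list. RpL10, which joins the subunit late in its maturation, was in no list and had ranked regions of 26.2 and 25.6 in replicates 1 and 2.

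Of the 9 genes of the exit tunnel and its rim, 8 were bound in the conservative list (88.9%, exact 95% interval 51.8 to 99.7%), an interval that contains the 63.0% of the whole family, and 4 in all 3 replicates. RpL23A (FBgn0026372, 3L from 1666288 to 1668654), a docking site for the signal recognition particle, had the second-highest signal of the family, with 115, 100 and 186 in the replicates and 401 in the conservative list. RpL19 gave 89.8, 48.4 and 61.0, and RpL22 gave 71.3, 50.1 and 101. RpL31 was lower, at 46.4, 46.4 and 56.0. RpL39 was bound in the conservative list alone, with a signal of 76.4. RpL35 was the unbound gene of this group. RpL40, made as a fusion with ubiquitin, was in none of the 7 lists and had 1 replicate region, with a signal of 22.5 in replicate 2. Of the remaining 25 genes with no role assigned here, 17 were bound in the conservative list (68.0%, 46.5 to 85.1%) and 11 in all 3 replicates.

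Relatives and duplicated copies made up 10 of the 54 genes, of which 4 were bound in the conservative list. RpL34b (FBgn0037686) had a signal of 76.8 in replicate 1, 98.7 in replicate 2, 126 in replicate 3 and 286 in the conservative list. Its copy RpL34a (FBgn0039406) had 82.3 and 53.6 in replicates 1 and 3, only a sub-threshold region in replicate 2, and 164 in the conservative list. Both copies were bound, and in replicate 2 RpL34b alone passed. RpL37-1 (FBgn0030616) had the lowest signal of any bound large-subunit gene, 66.2 in the conservative list (rank 3184 of 3515), and was in the replicate 2 list at 38.6 but not in the others. RpL37-2 was in no list and had a single replicate region, of 26.3 in replicate 2. RpL10Ab was in the list across replicates 1 and 3, with a signal of 72.4, but had an IDR of 0.239 in the conservative ranked list. RpL10Aa was in no list, with regions of 12.3, 14.9 and 16.3 in the replicates. Values could be uncertain where copies are alike in sequence, since how reads with several possible positions were treated is not stated.

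The 4 genes named as relatives of a ribosomal protein showed 1 bound promoter. RpLP0-like (FBgn0033485), whose yeast counterpart Mrt4 is an assembly factor that holds the place of P0, had signals of 44.7 and 75.8 in replicates 1 and 3 and 151 in the conservative list, with a TSS of 14-3-3zeta 65 bp from its summit. RpL24-like, counterpart of the yeast assembly factor Rlp24, was in no list and had regions of 17.6, 17.9 and 24.9 in the replicates. RpL7-like, counterpart of the yeast assembly factor Rlp7, had no ranked region in any replicate. RpL22-like, a copy with high expression in the testis, had no ranked region within 500 bp in any of the 7 ranked lists, and RpL21 was the only other large-subunit gene without one.

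The 20 genes not bound in the conservative list included RpL5, RpL6, RpL7-like, RpL9, RpL10, RpL10Aa, RpL10Ab, RpL13A, RpL15, RpL21, RpL22-like, RpL24-like, RpL35, RpL35A, RpL37-2, RpL38, RpL40, RpLP1 and RpLP2. Of the 20, 11 had a region in the matching ranked list and 5 were bound in another thresholded list. Over all protein-coding genes, bound or not, 7439 of 13945 had a region in that ranked list. The shares among all unbound protein-coding genes were not computed for either count. RpL9 passed in replicates 1 and 2 at 52.8 and 42.4 and had no ranked region in replicate 3. RpL35A passed in replicates 1 and 3 at 51.6 and 50.3, with a region of 19.0 in replicate 2, and reached a signal of 105 with an IDR of 0.0762 in the matching ranked list. RpL9 and RpL35A were thus each bound in 2 replicates while outside the conservative list. The bound gene nearest to the signal limit was RpL37-1, and 3 bound genes, RpL7A at 124, RpL29 at 83.5 and RpL39 at 76.4, were in no replicate list.

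RpL13A stood apart from the other unbound genes. Its ranked region on 3R from 5624270 to 5624599, with the summit 39 bp upstream of the TSS, had a signal of 179 in each of the 4 ranked lists built across replicates. In the list that matches the conservative peaks its IDR was 2.83e-05. Its regions in replicates 1, 2 and 3 had signals of 49.0, 52.7 and 68.8 and IDR values of 0.00332, 0.000366 and 5.84e-05. All 7 values were below the 0.01 that every listed peak satisfied, yet none of the thresholded lists held the region. In all, 100 of the 3615 ranked regions that passed 0.01 were missing from the conservative list, and RpL13A was the only large-subunit gene whose call changed with them, for a count of 35 instead of 34. The deposited descriptions of the thresholded lists name 1 input file beyond those of the ranked lists, and its part in these omissions was not tested.

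Summits at the large-subunit genes lay close to the TSS. In the conservative list their median signed distance was −37.5 bp, with negative values upstream (range −273 to 78 bp), and 31 of 34 summits (91.2%) lay within 100 bp of a TSS. Over all bound protein-coding genes the median was −138 bp, and 28.3% of summits lay within 100 bp. The shares within 50 bp were 67.6% (23 of 34) and 11.1%. In the 3 replicates the median of the large-subunit genes was −37.5, −44.0 and −40.0 bp (mean −40.5 ± 3.28 SD, n = 3), and that of all bound genes was −134, −145 and −138 bp (mean −139 ± 5.57). The replicate values of the 2 sets of genes did not overlap. The share within 100 bp was 90.3% ± 5.39 for the large-subunit genes and 27.9% ± 3.32 for all bound genes (mean ± SD, n = 3).

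**Figure D3:**
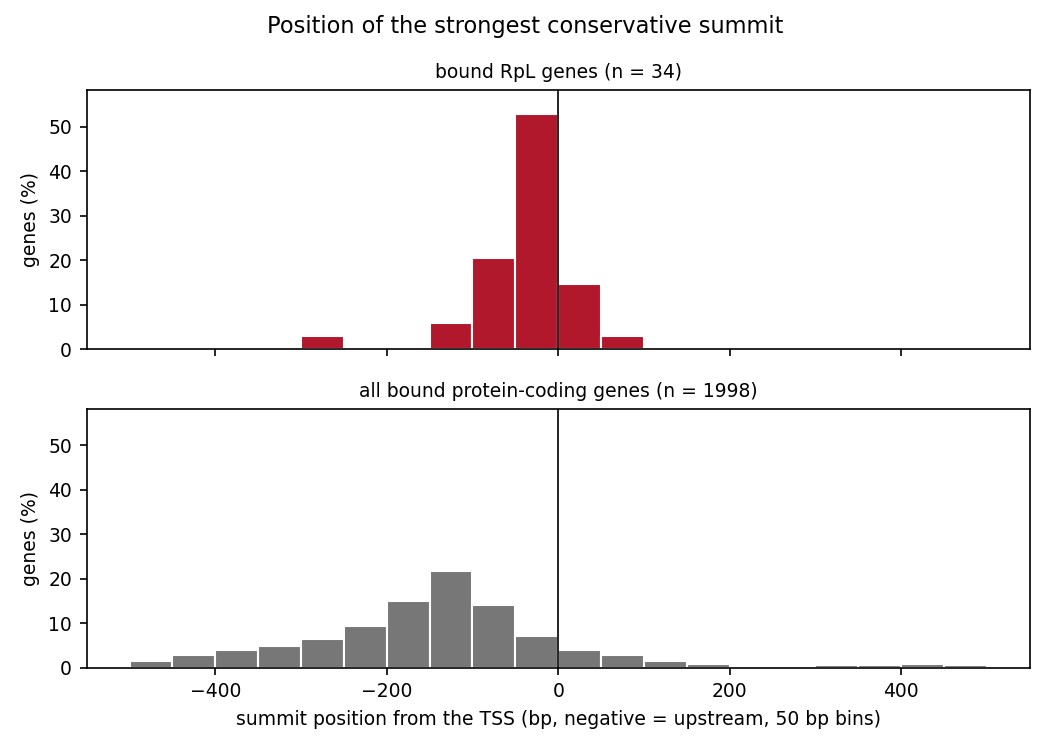
Position of the strongest conservative summit relative to the TSS in bp (negative is upstream, bins of 50 bp) for the 34 bound RpL genes and the 1998 bound protein-coding genes; bars are the percent of genes in each bin. The tallest RpL bin, with 52.9% of genes, lies between −50 and 0 bp, and the tallest bin of all genes, with 21.7%, between −150 and −100 bp.

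A close position was also found at RpS promoters, where the median was −12.0 bp and 19 of 20 summits lay within 100 bp. Of the 34 large-subunit summits, 28 (82.4%) were upstream of the TSS, 1 on it and 5 downstream. Over all bound genes 87.4% were upstream. By annotation 22 of the 34 were intergenic, 10 in a 5′ UTR and 2 in an intron. The corresponding shares over all bound genes were 57.8%, 17.2% and 21.1%. At 26 of the 34 genes the summit was within 1 bp of the middle of its peak and so adds nothing to the peak edges. In the other 8 the median was −43.0 bp and all 8 lay within 100 bp. For the 18 genes in all 3 replicates, the summits of the replicates spanned a median of 24.0 bp (range 4 to 127 bp). The strongest summit lay beyond 100 bp at 3 genes, RpL26 at −110 bp, RpL34b at −122 bp and RpL23 at −273 bp, the last being the bound gene nearest to the 500 bp limit. RpL23 had further conservative summits at −74 bp (signal of 93.8, against 129 at −273 bp) and at −481 bp (signal of 99.5), and a TSS of CG13531 lay 283 bp from its strongest summit. The nearest conservative summit outside that limit at an unbound gene lay 2762 bp upstream of RpL10Ab.

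Promoters of bound genes are often shared with a neighbour, so a summit may be counted for more than 1 gene. At 17 of the 34 bound large-subunit genes (50%) another protein-coding gene had a TSS within 500 bp of the summit. The share over all bound protein-coding genes was no lower, at 56.2%. The neighbours included Dref, which encodes the factor that binds the DRE, 121 bp from the RpL13 summit, and eIF1, the gene of a translation initiation factor, 336 bp from that of RpL28. The neighbour was nearer than the large-subunit gene in 1 case, RpL19, whose summit lay 70 bp from its own TSS and 61 bp from that of CG3776. At the 17 genes with no such neighbour the median position was −38.0 bp and 16 lay within 100 bp, compared with 26.9% of the 876 bound protein-coding genes that lacked a neighbour.

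The promoter sequences were searched for the elements named above, at the TSS with the most transcripts, to describe what the genes share beyond binding. A TCT initiator with its C within 5 bases of the TSS was found at 24 of 54 large-subunit genes (44.4%, exact 95% interval 30.9 to 58.6%) and at 1.47% of all protein-coding genes. Allowing 20 bases, the shares were 75.9% (41 of 54) and 5.41%. RpS promoters had it within 5 bases in 42.1% (16 of 38) and mRpL promoters in 2.13% (1 of 47). The element was found on both sides of the binding threshold, since 14 of 34 bound (41.2%) and 10 of 20 unbound genes (50%) carried it, with overlapping intervals of 24.6 to 59.3% and 27.2 to 72.8%. Among genes outside both cytosolic subunits, 26 of 165 with a TCT initiator within 5 bases (15.8%) and 14.0% of the others were bound in the conservative list. Summits at those 26 had a median position of −189 bp, and 30.8% lay within 100 bp of the TSS, compared with −140 bp and 26.4% at the bound genes outside both subunits that lacked the element.

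In the 300 bases from 250 before to 50 after the TSS, searched on both strands, the DRE (TATCGATA) was present at 15 large-subunit promoters (27.8%) and 9.23% of all promoters. The M1BP core (GGTCACAC) was present at 9 (16.7%) and 7.79%, and the E box (CACGTG) at 10 (18.5%) and 586 of 13945. At least 1 of the 3 was found at 20 of 34 bound genes (58.8%, 40.7 to 75.4%) and 7 of 20 unbound genes (35.0%, 15.4 to 59.2%), against 19.4% of all promoters and 26.4% of all bound promoters. Their intervals overlapped. The order was the opposite at the RpS genes, of which 8 of 17 with at least 1 of the 3 words (47.1%) and 12 of 21 without any (57.1%) were bound, and no RpS promoter held the E box. Where a DRE was present at a bound gene, its centre lay a median of 29.5 bp from the summit, and within 50 bp at 7 of 10 genes. For the other words this distance was 42.0 bp for the M1BP core (4 of 6 genes within 50 bp), 57.0 bp for the E box (3 of 7) and 59.0 bp for CCGGAA (5 of 17), a word added after the promoters had been seen. Since most summits lie within 100 bp of the TSS, a word near the TSS is near the summit in any case. TATAAA, the binding word of TBP itself, was found at 42.6% of large-subunit and 45.5% of all promoters. It was at 11 of 34 bound (32.4%, 17.4 to 50.5%) and 12 of 20 unbound large-subunit genes (36.1 to 80.9%), again with overlapping intervals, and the RpS genes had the opposite order, with 13 of 19 bound where it was present and 7 of 19 where it was not. The word of the Trithorax-like factor, searched as GAGAG, was found at 22.2% and 30.2%. ACAGTG, a word taken from earlier results of these data, was found at 18.5% of large-subunit promoters, 14.2% of all promoters and 22.8% of all bound promoters, and at 20.6% of bound and 15.0% of unbound large-subunit genes. CCGGAA was found at 25 of 54 (46.3%) and 6.79% of all promoters, on both sides of the threshold, at 17 of 34 bound and 8 of 20 unbound genes. A match is a description of letters in these windows and was not tested as a binding site.

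**Figure D4:**
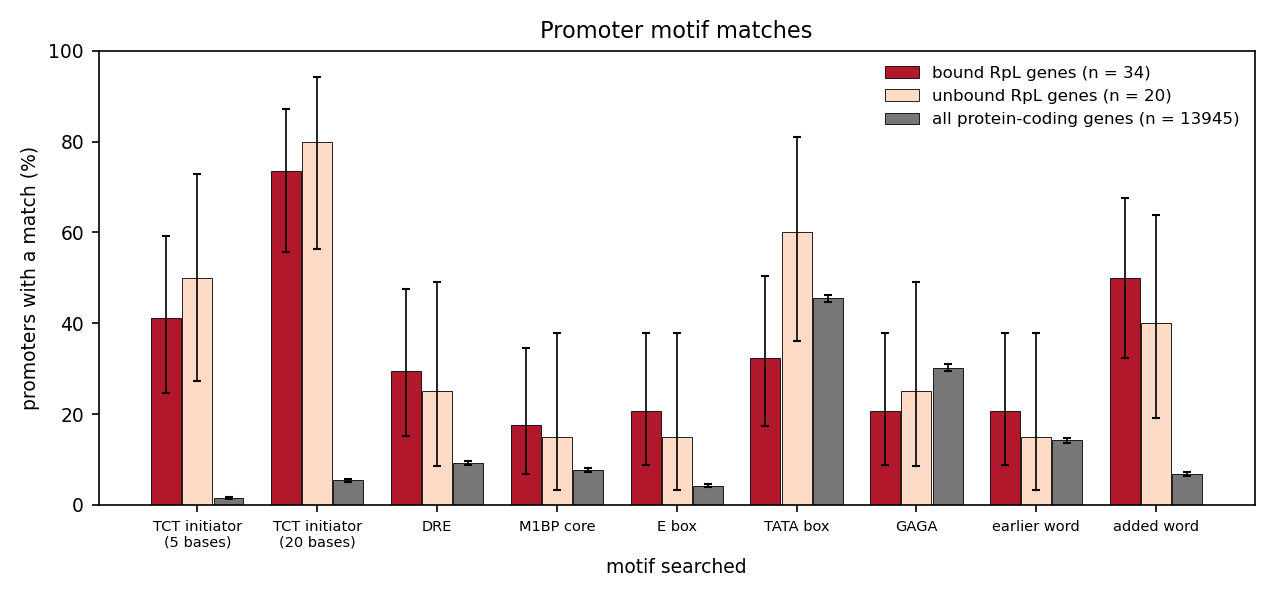
Percent of promoters with a match to each motif for the 34 bound and 20 unbound RpL genes and all 13945 protein-coding genes; whiskers are exact 95% binomial intervals, and the earlier word and the added word are ACAGTG and CCGGAA. The TCT initiator within 20 bases is at 73.5% of bound and 80.0% of unbound RpL promoters and at 5.41% of all promoters.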

How the data were processed

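Peak lists from 3 biological replicates of 1 group were used. Coordinates are on dm6, per the labels, and no peak ended past the reference length of an arm. The aligner and peak caller are not stated in the labels. The signal of each peak is the deposited peak height of the authors, and the −log10 of the global IDR was read from the deposited ranked lists and converted to an IDR. Signals have no stated scale, so they were compared only within a list.

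Each thresholded list was matched to the ranked list that holds all its peaks. The source regions recorded in that of the conservative list coincided with ranked regions of replicate 2 (63.4%) and replicate 3 (66.2%) and hardly ever with replicate 1, although the deposited descriptions name all 3 replicates. The other lists across replicates matched replicates 1 and 2, replicates 1 and 3, or none. The replicates had 49504, 48710 and 46992 ranked regions, the only measure of depth used. Their number of reads was not used here.

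TSSs were those of Ensembl BDGP6, and sequence that of RefSeq; the strongest summit within 500 bp was kept for each gene. Summit assignment was tested on simulated data. Shares have exact 95% binomial intervals (scipy 1.17.1, Python 3.11.15). With 1 group, no test between conditions was possible, and no p-value was computed. The large-subunit genes, the lists and the motifs were chosen with earlier results of these data known. Full values were given for the 12 bound genes with the highest conservative signal, all copies and relatives, the stalk and the 5S particle, and for the 6 unbound genes with the best ranked region, except 1 gene that is counted but not reported here by name. Alternatives covered the window, the list, the IDR, the TSS used and leaving out a replicate.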

Additional observations from a re-analysis of the deposited data

How the results depend on the processing

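Of 41 alternatives over 5 results, 37 stayed within 1.5 times the count, the spread over replicates or the binomial interval. These are not all independent checks. The count of bound genes that have a ranked region is fixed by how the lists were built. Leaving a replicate out of the count in all 3 replicates cannot lower it. The number of genes bound in the conservative list was 24 with IDR at most 0.001 and 24 with the stronger peaks by median signal. Requiring both remaining replicate lists in place of the conservative list gave 20 without replicate 1, 27 without replicate 2 and 20 without replicate 3. The number bound in all 3 replicates became 20 to 27 when 1 replicate was left out, and was 15 where the TSS had to lie inside the peak. The share over all protein-coding genes was not computed for these counts, so they do not show whether the contrast with all genes held. For the other lists across replicates it was 12.9%, 13.1% and 13.9%, beside 59.3%, 63.0% and 61.1% of the large-subunit genes. For the median rank percentile, leaving out a replicate meant averaging the medians of the 2 remaining replicate lists. That gave 52.0 without replicate 3, 57.9 without replicate 1 and 63.6 without replicate 2, beside 57.8 over all 3 replicates. These averages are not the conservative list recomputed, so they are not comparable with its 68.8. Under its 6 other alternatives the median rank percentile lay between 66.2 and 69.2. The TCT share rose from 44.4% to 75.9% where the C could lie within 20 bases, and that of all protein-coding genes from 1.47% to 5.41%. What lies behind the larger rise was not tested. The median summit position stayed between −38.0 and −34.5 bp under its 6 alternatives. No paired analysis was possible because there was only 1 group. A gene with no summit in a list is only below that list's threshold, and the part of sequencing depth in the unbound calls was not tested.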

Other observations

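The following values were looked at after the bound and unbound genes were known, and no explanation was tested. Within 6 Mb of the centromere-side end of an arm, 1 of 8 large-subunit genes was bound in the conservative list, RpL30. The unbound genes there were RpL5, RpL10, RpL13A, RpL15, RpL21, RpL35A and RpL38. The count depends on the limit and on the calls: RpLP0, bound in every list, lies at 6.03 Mb, RpL35A at 5.47 Mb was bound in 4 of the other lists, and RpL13A at 5.62 Mb passed an IDR of 0.01 in all 7 ranked lists. Farther out, 33 of 46 were bound. Over all protein-coding genes the shares were 11.6% of 1520 within 6 Mb and 14.7% farther out.

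Small nucleolar RNA genes, whose products guide the modification of ribosomal RNA, lie inside the introns of many ribosomal protein genes. On the same strand, 33 snoRNA genes lay inside 16 of the 54 large-subunit genes. Of these 16 host genes 12 were bound in the conservative list (75%, exact 95% interval 47.6 to 92.7%), and of the 38 without a snoRNA gene 22 were bound (57.9%, 40.8 to 73.7%). The intervals overlapped. Of the 68 other protein-coding genes that hold a snoRNA gene, 27 were bound (39.7%, 28.0 to 52.3%), and the share over all protein-coding genes was 14.3%.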
